A study of Rattus norvegicus with 16 samples.

Results

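The collagen, laminin and integrin genes were described in the hippocampus of rats after chronic mild stress (CMS), a run of mild and changing stressors. Members were the genes whose RefSeq-matched probe carries a symbol of a numbered collagen chain, of a laminin alpha, beta or gamma chain, or of an integrin alpha or beta chain with a number or v after it; Itgam was left out by that rule. It found 34 genes among the 13903 symbols matched on the array, each with 1 probe: 15 collagen chains, 5 laminin chains, 11 integrin chains and 3 proteins that bind integrin tails or share their name (Itgb1bp1, Itgb1bp2 and Itgb3bp). The name table holds 81 such genes, and those with no matched probe, among them Col1a1, Col4a2, Col6a1, Lamc1, Itgav and Itga6, were not analysed here.

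Collagens are triple helices of 3 alpha chains that form fibrils, sheets or anchoring filaments outside the cell. Laminins are cross-shaped trimers that, with type IV collagen, make up the basement membrane, which in the brain lies around blood vessels and under the pia. Integrins are alpha-beta pairs in the cell membrane that bind these proteins and link them to the cytoskeleton.

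The rats were male Sprague-Dawley animals, and hippocampal total RNA went onto 16 one-colour Agilent arrays, 4 per group. Control rats had no CMS. The other 3 groups had 8 weeks of CMS and are labelled depression-susceptible, anxiety-susceptible and insusceptible. The labels do not say how stressed rats were sorted or whether the 4 arrays of a group came from 4 animals. A level below is the log2 signal minus the array's own 75th percentile (0 is that percentile), and levels of different probes are not set against each other. The summed level of a marker list is the log2 of its probes' added linear signals, so the brightest markers weigh most.

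Arrays of 1 group on 1 slide differed from each other by 0.721 to 1.005 times the spread expected for a mean of 3 repeated spots. They were therefore averaged, which left 6 samples. The check covered 2987 to 3415 probes per sample with 3 spots, well above background on all arrays. Slides 1 and 2 each held 1 control and 1 depression-susceptible sample, slide 3 held the anxiety-susceptible sample and slide 4 the insusceptible sample. Group, slide and scan day therefore cannot be told apart for those last 2 samples, whose 75th percentile was 1077 to 1248 signal units against 2997 to 3382 on slides 1 and 2. Their errors were taken from the spread of the other groups, and a standard error (SE) here measures the spread between slides, not between animals. Of 24684 probes, 62.2% to 74.5% were well above background per array and none was saturated; 11 of 12 tested neuronal markers were well above background on all arrays. In a piece of tissue, fewer cells of a type and less RNA per cell cannot be told apart.

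Of the 34 members, 25 were well above background on all 16 arrays and 32 were so on at least 4, the minimum for a test. Itgb1bp2, a muscle protein that binds integrin beta 1, and Lamc3, a laminin gamma chain, were well above background on 1 control array each and were not tested. A change was called at an adjusted p under 0.05 in limma, with Benjamini-Hochberg adjustment over all 17713 probes tested.

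The promoters of 26 members are in RefSeq's GRCr8 table. The 250 bases before the annotated start are shown for 5 of them: Col5a1, Col11a2 and Col4a1, rising fibril and basement membrane chains, and Itgb6 and Col8a1, the 2 largest falls in depression-susceptible rats. They were chosen after their values were seen. Capitals mark matches on either strand to a GC box (GGGCGG), to the letters CCAAT or to a TATA box (TATAAA); overlapping GC boxes run together.
Col5a1, chr3:31606630-31606879, plus strand: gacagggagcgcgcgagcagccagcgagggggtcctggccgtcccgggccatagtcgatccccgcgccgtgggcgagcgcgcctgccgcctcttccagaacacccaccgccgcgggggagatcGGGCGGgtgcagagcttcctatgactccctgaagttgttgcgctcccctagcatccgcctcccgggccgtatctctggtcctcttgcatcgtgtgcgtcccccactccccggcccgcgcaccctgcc
Col11a2, chr20:4817649-4817898, minus strand: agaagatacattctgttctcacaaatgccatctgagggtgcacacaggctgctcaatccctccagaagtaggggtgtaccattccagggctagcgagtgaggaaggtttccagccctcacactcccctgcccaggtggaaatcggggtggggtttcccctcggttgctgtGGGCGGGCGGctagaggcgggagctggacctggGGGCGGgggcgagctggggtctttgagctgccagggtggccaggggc
Col4a1, chr16:84885347-84885596, plus strand: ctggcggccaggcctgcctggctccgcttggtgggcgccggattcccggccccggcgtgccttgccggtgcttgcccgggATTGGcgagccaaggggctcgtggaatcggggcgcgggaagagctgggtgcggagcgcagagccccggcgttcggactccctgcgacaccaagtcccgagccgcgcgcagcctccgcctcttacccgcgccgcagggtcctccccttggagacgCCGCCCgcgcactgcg
Itgb6, chr3:65530334-65530583, minus strand: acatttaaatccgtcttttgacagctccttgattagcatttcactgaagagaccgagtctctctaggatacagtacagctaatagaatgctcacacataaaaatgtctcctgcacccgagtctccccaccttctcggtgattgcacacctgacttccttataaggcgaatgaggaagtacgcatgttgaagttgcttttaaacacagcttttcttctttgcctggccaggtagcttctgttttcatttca
Col8a1, chr11:56246532-56246781, plus strand: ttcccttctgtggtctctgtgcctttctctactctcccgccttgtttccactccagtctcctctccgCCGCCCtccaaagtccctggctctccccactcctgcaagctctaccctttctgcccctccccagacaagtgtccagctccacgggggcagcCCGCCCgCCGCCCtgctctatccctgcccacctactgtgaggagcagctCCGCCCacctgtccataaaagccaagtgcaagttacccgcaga
The Col11a2 stretch holds 3 GC boxes, Col8a1 4, Col5a1 1, and Col4a1 1 GC box and 1 CCAAT box. None of these letters was found in the Itgb6 stretch, whose GC content was 43.2% against 71.6% for Col5a1. Among the 26 members with a promoter, 12 held a GC box, 6 a CCAAT box and 2 a TATA box, while 30.5%, 34% and 12.9% of all 33469 promoters did. Their median number of CpG pairs was 12, against 5 over all promoters. A match is a run of letters, not a measured binding site.

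In depression-susceptible rats, several fibrillar and anchoring collagen chains were higher than in controls, led by Col5a1, while the epithelial integrin chain Itgb6 and the network collagen Col8a1 were lower. Of the 32 tested members, 12 were called: 8 higher (Col5a1, Itga10, Col11a2, Col2a1, Col7a1, Itga5, Col9a2 and Col4a1) and 4 lower (Itgb6, Col8a1, Lama3 and Itga1). That is 37.5% of members, against 10.2% of all probes tested, of which 6.88% were higher and 3.27% lower. By family, 7 of 15 collagen chains, 1 of 4 laminin chains and 4 of 11 integrin chains were called. The only 2 integrin chains called higher were Itga10 and Itga5. Itga10 and Itga5 were well above background on 0 and 1 control arrays, so they passed the filter through the groups where they were high and their calls are a description only. Among the 25 members well above background on all arrays, 10 were called, where 12.4% of such probes were, and the median difference was 0.14 over these members and -0.05 over these probes.

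The count rests on few samples. It fell to 3 without the control sample of slide 1, the control sample of slide 2 or the depression-susceptible sample of slide 2, and to 2 without the depression-susceptible sample of slide 1; Col5a1 and Itgb6 were called in all 4 of these fits. Without the filter on dim probes it was 9, and the calls of Col4a1, Itga1 and Lama3 ended. Within slides, the difference had the same sign on slide 1 and slide 2 for 30 of the 32 members and for 83.4% of all probes tested. Since array position differed between the groups in the same way on both slides, this does not separate group from position. With slide as a block over the 8 arrays, 23 members were called, where 55.1% of all probes were. With all 16 arrays as samples 24 members and 50.8% of all probes were called. Both of these fits count arrays that differed by about spot noise as separate samples. The fit of 6 samples held no slide term.

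**Figure D1:**
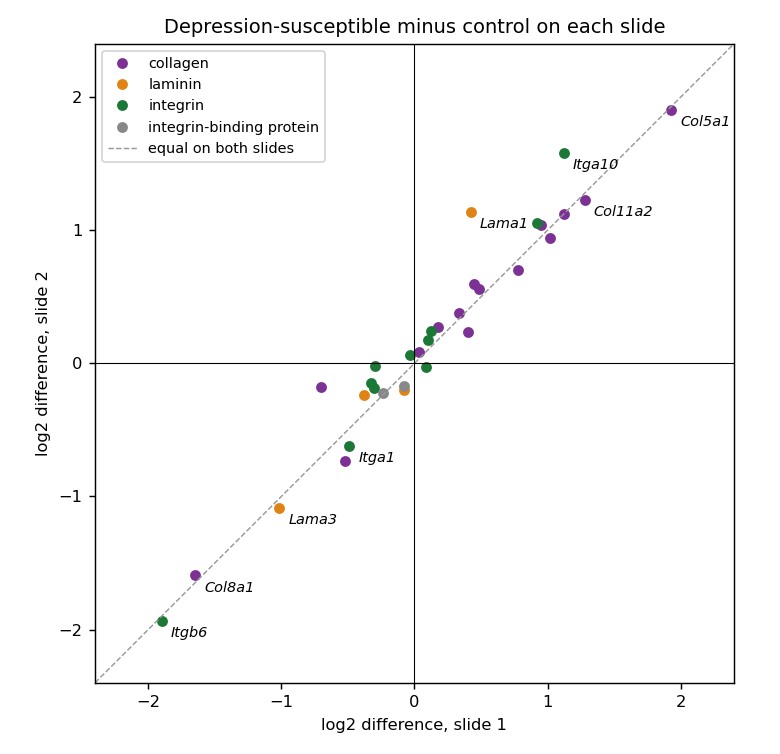
Difference between the depression-susceptible and the control sample (log2) on slide 1 (x axis) and slide 2 (y axis) for the 32 tested members, coloured by family, with the dashed line marking equal differences. Of the 32 points, 30 lie in the lower left or upper right part; Itgb6 and Col8a1 are farthest below 0 and Col5a1 farthest above it.

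In the anxiety-susceptible sample, 16 of 32 members were called, 12 higher and 4 lower, which is 50% of members against 30.3% of all probes tested, 13.6% higher and 16.7% lower. The 12 were Col5a1, Col11a2, Itga10, Col23a1, Col7a1, Col2a1, Col9a2, Col4a1, Itga5, Itga7, Itga1 and Col9a3, and the 4 were Itgb1, Col1a2, Itgb6 and Itgb2. Itga10 and Itga5 were well above background on 0 and 1 control arrays. They passed the filter through groups where they were high, so their calls are a description only. The count was 6 without either control sample and 10 without either depression-susceptible sample, and 10 when dim probes were kept, which ended the calls of Col1a2, Col9a3, Itga1, Itgb1, Itgb2 and Itgb6. In the value table of the authors, Col1a2, Itga1 and Itgb1 were not called. Among the 25 members well above background on all arrays, 14 were called, where 36.4% of such probes were.

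In the insusceptible sample, 16 of 32 members were also called, 12 higher and 4 lower, against 30.6% of all probes tested, 16.1% higher and 14.4% lower. Of the 12, Col5a1, Col11a2, Col7a1, Col2a1, Col23a1, Col4a1, Col9a2, Col3a1, Itga1 and Itgb4 rose. The other 2, Itga10 and Itga5, were well above background on no insusceptible array and on 0 and 1 control arrays, and are not read as rises. Itgb6, Col8a1 and Itgb2 fell, and Col4a4, well above background on no array of this group, was also called lower. Among the 25 members well above background on all arrays, 15 were called, where 35.2% of such probes were. The count was 5 without either control sample and 12 without either depression-susceptible sample. Without the filter on dim probes the calls of Col4a4 and Itgb4 ended, under quantile normalization those of Itga1 and Itga5, and in the value table of the authors those of Itga5 and Itga10. The 3 comparisons share the control samples, so their calls are not independent of each other and are given side by side below.

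**Figure D2:**
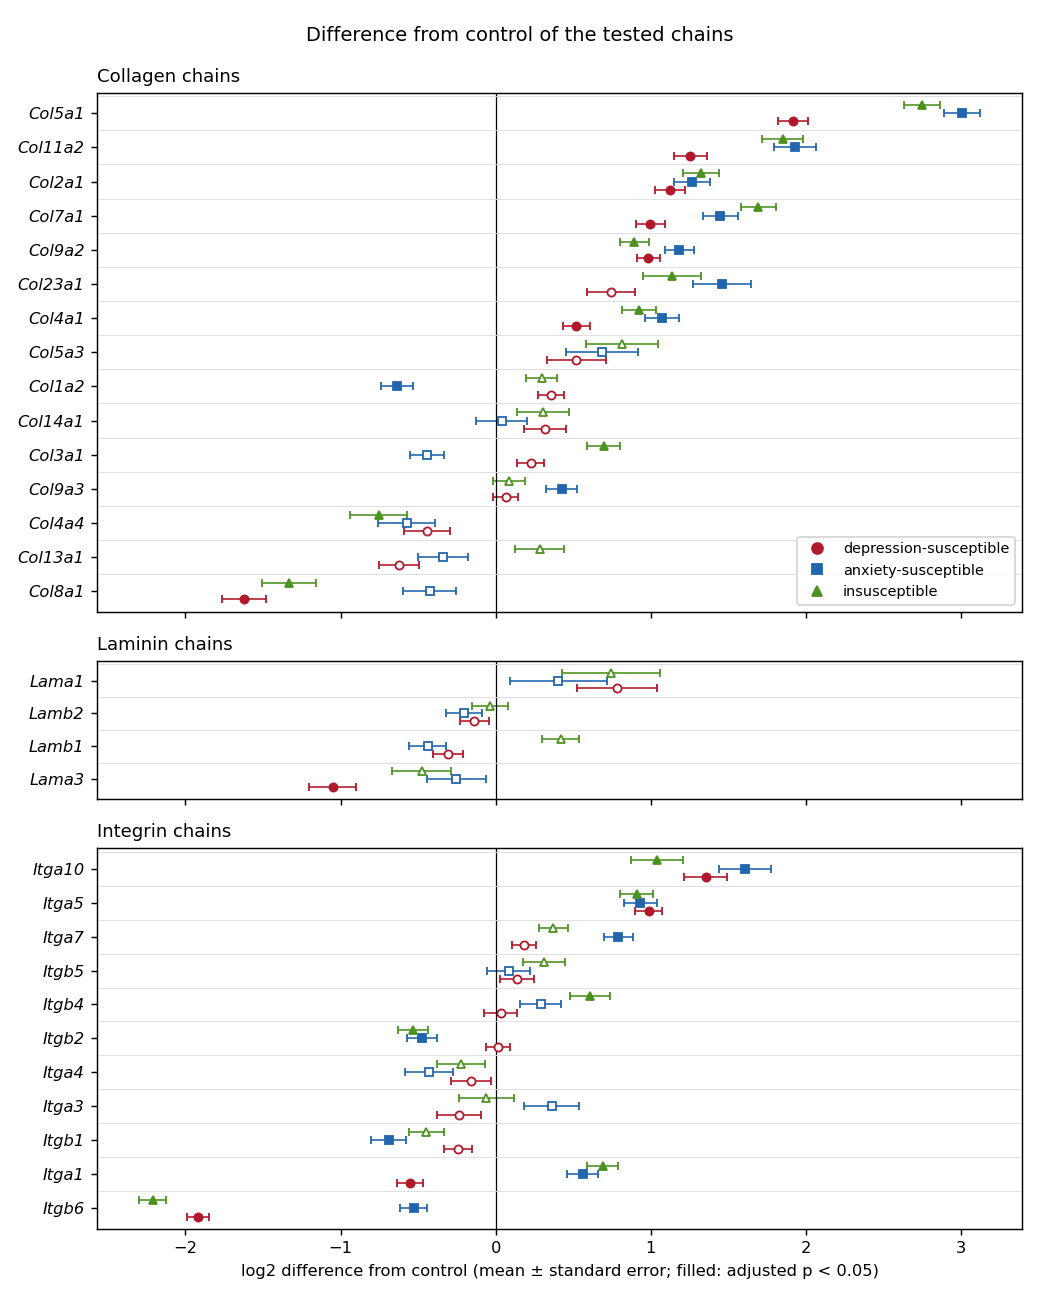
Difference from control (log2, x axis, with SE bars) of each tested collagen, laminin and integrin chain (y axis) in the depression-susceptible (circles), anxiety-susceptible (squares) and insusceptible (triangles) groups, filled where the adjusted p was under 0.05. Col5a1 lies farthest to the right, at 1.92, 3.01 and 2.75, and Itgb6 lies farthest to the left in the depression-susceptible and insusceptible groups, at -1.92 and -2.21. The filled point of Col4a4 turned sign under normexp background correction, and those of Itga10 and Itga5 rest on signals mostly not well above background in controls.

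Of 6 tested fibril-forming collagens, 3 rose and 0 fell in depression-susceptible rats, 3 rose and 1 fell in anxiety-susceptible rats, and 4 rose and 0 fell in insusceptible rats. Col5a1, a chain of type V collagen, which sets the diameter of collagen fibrils, read -6.00 and -5.86 in the control samples, -4.07 and -3.96 in the depression-susceptible samples, -2.93 in the anxiety-susceptible sample and -3.19 in the insusceptible sample. All 4 stressed samples lay above both controls. The differences were 1.92 (SE 0.10, adjusted p = 0.00434), 3.01 (SE 0.12, adjusted p = 0.00599) and 2.75 (SE 0.12, adjusted p = 0.00548), or 3.78-, 8.03- and 6.71-fold. Under normexp, another background correction, the difference in the depression-susceptible group was 1.09 and remained called. The size of these folds therefore depends on the background correction.

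Col11a2, a chain of type XI collagen, the fibril collagen of cartilage and inner ear, read -1.61 and -1.42 in controls, -0.33 and -0.19 in depression-susceptible rats, 0.42 in anxiety-susceptible and 0.34 in insusceptible rats. No stressed sample overlapped the controls. The differences were 1.25 (SE 0.11, adjusted p = 0.0113), 1.93 (SE 0.13, adjusted p = 0.00757) and 1.85 (SE 0.13, adjusted p = 0.00831), and normexp left them at 1.27, 1.85 and 1.75.

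Col2a1, the chain of cartilage type II collagen, read -5.76 and -5.63 in controls and -4.63, -4.51, -4.43 and -4.37 in the stressed samples. The controls were again the lowest. It was higher by 1.12 (SE 0.10, adjusted p = 0.0107), 1.26 (SE 0.12, adjusted p = 0.0113) and 1.33 (SE 0.12, adjusted p = 0.0108) in the depression-susceptible, anxiety-susceptible and insusceptible groups. The first of these was 0.55 under normexp and remained called.

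Col1a2 and Col3a1, chains of the major fibrils of types I and III, moved differently. Col1a2 read -0.52 and -0.63 in controls, -0.19 and -0.25 in depression-susceptible rats (3 of 4 arrays had a usable spot), -1.22 in the anxiety-susceptible and -0.28 in the insusceptible sample. The anxiety-susceptible sample was the lowest. Only there was a difference called, at -0.64 (SE 0.10, adjusted p = 0.0241); without the filter on dim probes its adjusted p was 0.0578 and the value table of the authors gave 0.0548. The other differences were 0.36 (SE 0.08) and 0.30 (SE 0.10).

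Col3a1 read -0.69 and -0.64 in controls, -0.51 and -0.37 in depression-susceptible rats, -1.11 in the anxiety-susceptible and 0.03 in the insusceptible sample. Its rise of 0.70 (SE 0.11, adjusted p = 0.023) in insusceptible rats was called. The difference of -0.44 (SE 0.11, adjusted p = 0.0506) in anxiety-susceptible rats did not pass. Col5a3, another type V chain, read -0.85 and -0.54 in controls and -0.37, 0.02, -0.01 and 0.12 in the stressed samples, and none of its differences (0.52, 0.69 and 0.81) was called.

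**Figure D3:**
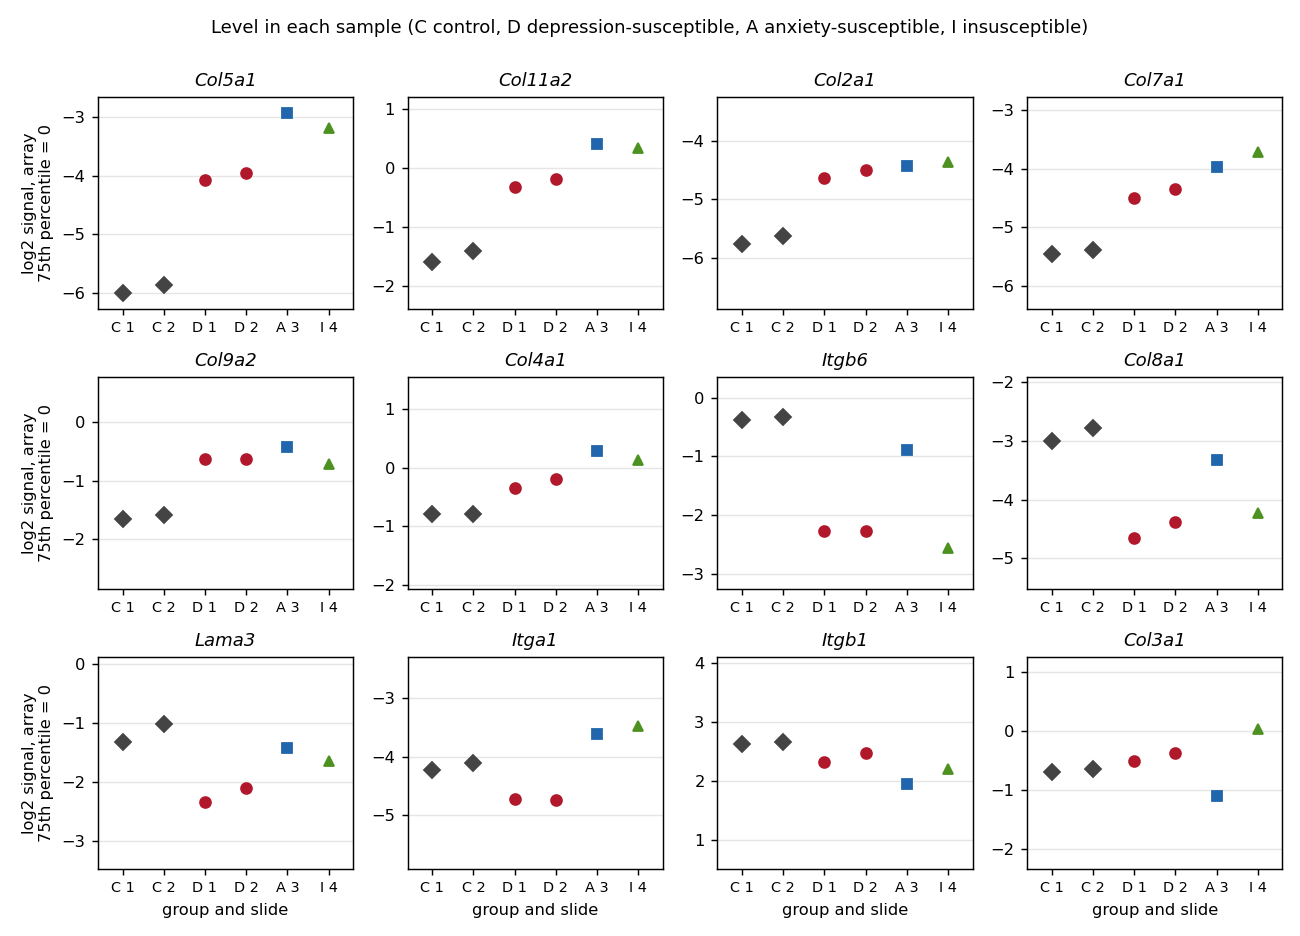
Level (log2 signal, array 75th percentile at 0, y axis) of 12 members in each of the 6 samples (x axis, group letter and slide number), every panel spanning the same number of log2 units. Both control points lie below all 4 stressed points for Col5a1, Col11a2, Col2a1, Col7a1, Col9a2 and Col4a1, and above them for Itgb6, Col8a1, Lama3 and Itgb1.

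Among basement membrane collagens, Col4a1, which pairs with Col4a2 in the main vascular network, read -0.80 in both control samples, -0.35 and -0.20 in depression-susceptible rats, 0.27 in the anxiety-susceptible and 0.13 in the insusceptible sample. The stressed samples were all above the controls. It rose by 0.52 (SE 0.09, adjusted p = 0.0463), 1.07 (SE 0.11, adjusted p = 0.0125) and 0.92 (SE 0.11, adjusted p = 0.0154); the first call ended without the filter on dim probes (adjusted p = 0.107).

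Col4a4, a chain of the kidney and inner ear form of type IV collagen, was well above background on all control and depression-susceptible arrays and on no anxiety-susceptible or insusceptible array. Its measured levels were -5.67 and -5.93 in controls, -6.37 and -6.11 in depression-susceptible rats, and -6.37 and -6.55 in the anxiety-susceptible and insusceptible samples. The measured difference in insusceptible rats was -0.76 (adjusted p = 0.0496), which sets no bound on the fall, and it turned to 0.69 under normexp.

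Among collagens that attach to fibrils or anchor membranes, Col7a1 and Col9a2 rose in each group. Col7a1, the anchoring fibril chain under skin epithelium, read -5.45 and -5.38 in controls and -4.50, -4.34, -3.97 and -3.72 in the stressed samples, differences of 0.996 (SE 0.09, adjusted p = 0.013), 1.45 (SE 0.11, adjusted p = 0.0091) and 1.69 (SE 0.11, adjusted p = 0.00764). Under normexp the first was 0.51 and remained called. Col9a2, a chain of type IX collagen on the surface of cartilage fibrils, read -1.65 and -1.58 in controls and -0.63, -0.64, -0.43 and -0.72 in the stressed samples. It was higher by 0.98 (SE 0.07, adjusted p = 0.00853), 1.18 (SE 0.09, adjusted p = 0.00892) and 0.89 (SE 0.09, adjusted p = 0.0133).

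Its partner chain Col9a3 read -1.90 and -1.84 in controls, -1.86 and -1.75 in depression-susceptible rats, -1.44 in the anxiety-susceptible and -1.78 in the insusceptible sample. Only the difference of 0.42 (SE 0.10, adjusted p = 0.0486) in anxiety-susceptible rats was called, and the call ended under quantile normalization (adjusted p = 0.0662) and without the filter on dim probes (adjusted p = 0.0972). Col23a1, a collagen held in the cell membrane, read -3.51 and -3.21 in controls, -2.73 and -2.50 in depression-susceptible rats, -1.90 in the anxiety-susceptible and -2.22 in the insusceptible sample. The rises of 1.46 (SE 0.19, adjusted p = 0.0178) and 1.14 (SE 0.19, adjusted p = 0.0255) in the last 2 groups were called; 0.74 (SE 0.15, adjusted p = 0.0667) in depression-susceptible rats was not.

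Of the other collagens, Col13a1, also a membrane collagen, and Col14a1, which binds the surface of fibrils, had no called difference. Col13a1 read from -6.14 to -5.19 and Col14a1 from -4.41 to -3.88 over the 6 samples. In both, the control and the stressed samples overlapped.

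Col8a1, a network collagen of the vessel wall and of Descemet's membrane in the eye, was the only collagen called lower in depression-susceptible rats. Its level was -3.0 and -2.78 in controls, -4.64 and -4.38 in depression-susceptible rats, -3.32 in the anxiety-susceptible and -4.22 in the insusceptible sample. The controls were highest and the anxiety-susceptible sample came next. The falls of 1.62 (SE 0.14, adjusted p = 0.0113) and 1.33 (SE 0.17, adjusted p = 0.0177) in depression-susceptible and insusceptible rats were called, while -0.43 (SE 0.17) in anxiety-susceptible rats was not. The insusceptible difference was -0.53 under normexp and remained called.

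Of 4 tested laminin chains, 1 was called in a comparison with control. Lama3, the alpha chain of epithelial laminin, read -1.32 and -1.02 in controls, -2.34 and -2.10 in depression-susceptible rats, -1.42 in the anxiety-susceptible and -1.65 in the insusceptible sample. The depression-susceptible samples were lowest. Their fall of 1.05 (SE 0.15, adjusted p = 0.0342) was called, and the call ended without the filter on dim probes (adjusted p = 0.0724). The other differences were -0.25 (SE 0.19) and -0.48 (SE 0.19).

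Lama1, the alpha chain of the first basement membrane of the embryo, read -5.34 and -5.36 in controls and -4.91, -4.22, -4.94 and -4.60 in the stressed samples. All stressed samples were above the controls, but no difference (0.78, 0.40 and 0.74) was called. Lamb2, a beta chain of vessel and synapse laminin, read 1.73 and 1.90 in controls and between 1.61 and 1.78 in the others, with no call. Lamb1, the other common beta chain, was well above background on 3 control arrays, 4 depression-susceptible arrays and 1 array of each other group; it read -6.12 and -6.30 in controls and -6.50, -6.54, -6.65 and -5.79 in the stressed samples, and none of its differences from control was called.

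Integrin receptors went both ways. Among collagen-binding alpha chains, Itga1, found on pericytes and smooth muscle, read -4.23 and -4.11 in controls, -4.72 and -4.73 in depression-susceptible rats, -3.61 in the anxiety-susceptible and -3.48 in the insusceptible sample. It was below the controls in the first stressed group and above them in the other 2. The differences were -0.55 (SE 0.08, adjusted p = 0.0349), 0.56 (SE 0.10, adjusted p = 0.0288) and 0.69 (SE 0.10, adjusted p = 0.0205). The difference between depression-susceptible and anxiety-susceptible rats was -1.11 (SE 0.10, adjusted p = 0.0565) and that between depression-susceptible and insusceptible rats -1.24 (SE 0.10, adjusted p = 0.0745), so neither passed. Under normexp both of these passed (adjusted p = 0.00645 and 0.00521), while the fall in depression-susceptible rats no longer did (-0.36, adjusted p = 0.0653). The summed level of 11 tested pericyte and smooth muscle markers was 2.61 and 2.81 in controls and 2.77 and 2.91 in depression-susceptible rats. It was 2.71 in the anxiety-susceptible and 3.07 in the insusceptible sample. Only the largest called changes of these markers, up to 3 per group, are named. Cnn1 rose by 0.61 in depression-susceptible rats. In anxiety-susceptible rats Mylk, Kcnj8 and Notch3 rose by 0.76, 0.76 and 0.63. In insusceptible rats Cnn1, Mylk and Vtn rose by 1.15, 1.01 and 0.97. The part of these markers in the Itga1 result was not tested.

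Itga10, the collagen-binding chain of cartilage, was well above background on no control or insusceptible array and on all depression-susceptible and anxiety-susceptible arrays. Its measured levels were -6.93 and -7.13 in controls, -5.81 and -5.55 in depression-susceptible rats, -5.42 in the anxiety-susceptible and -5.99 in the insusceptible sample. The measured differences were 1.35 in depression-susceptible rats and 1.61 in anxiety-susceptible rats. No lower bound on the fold is given, since a control level not well above background depends on the background correction. It passed the filter only through these 2 groups, so both values describe it and give no independent support. Under normexp the first difference was 0.40 (adjusted p = 0.0784). For insusceptible rats no difference is given, since neither they nor the controls were well above background.

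Itga5, the fibronectin receptor chain, was well above background on 1 control, 4 depression-susceptible, 3 anxiety-susceptible and no insusceptible array. Its measured levels were -6.93 in both control samples and -6.01, -5.87, -6.00 and -6.02 in the stressed samples. All stressed samples read above the controls. Since 3 of the 4 control arrays gave no signal well above background, the calls of Itga5 are a description only. Its measured difference in depression-susceptible rats, 0.99, was 0.30 under normexp.

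Laminin-binding alpha chains were represented by Itga7 and Itga3. Itga7, a chain of muscle and vessel cells, read 0.28 and 0.23 in controls, 0.40 and 0.47 in depression-susceptible rats, 1.04 in the anxiety-susceptible and 0.63 in the insusceptible sample. The anxiety-susceptible rise of 0.79 (SE 0.09, adjusted p = 0.0157) was called; 0.18 (SE 0.08) and 0.37 (SE 0.09, adjusted p = 0.0538) were not. Itga3 read between -5.96 and -5.20 and Itga4, a chain of leukocytes, between -4.24 and -3.81, and neither was called in any comparison with control.

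Itgb6, the epithelial beta chain that with alpha v releases active TGF-beta, had the largest fall of all members in depression-susceptible and insusceptible rats. It read -0.38 and -0.34 in controls, -2.27 in both depression-susceptible samples, -0.89 in the anxiety-susceptible and -2.57 in the insusceptible sample. The differences were -1.92 (SE 0.07, adjusted p = 0.00293), -0.53 (SE 0.09, adjusted p = 0.0253) and -2.21 (SE 0.09, adjusted p = 0.0048), falls of 3.78-, 1.44- and 4.63-fold. It was also the 1 member called between stressed groups, as given below.

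Markers of the choroid plexus epithelium, which borders the hippocampus, were lower together with Itgb6 and Col8a1. All 13 tested markers were called lower in depression-susceptible and insusceptible rats and 12 of 13 in anxiety-susceptible rats, with median differences of -3.74, -4.11 and -1.88. Their summed level was 7.5 and 7.31 in controls, 5.47 and 5.31 in depression-susceptible rats, 7.19 in the anxiety-susceptible and 4.39 in the insusceptible sample, and 10 of the 13 were well above background on all arrays. The sum follows the brightest markers. In the anxiety-susceptible sample it was close to the controls, although 12 of 13 markers were called lower. The part of the choroid plexus in the values of Itgb6, Col8a1 and Lama3 was not tested.

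**Figure D4:**
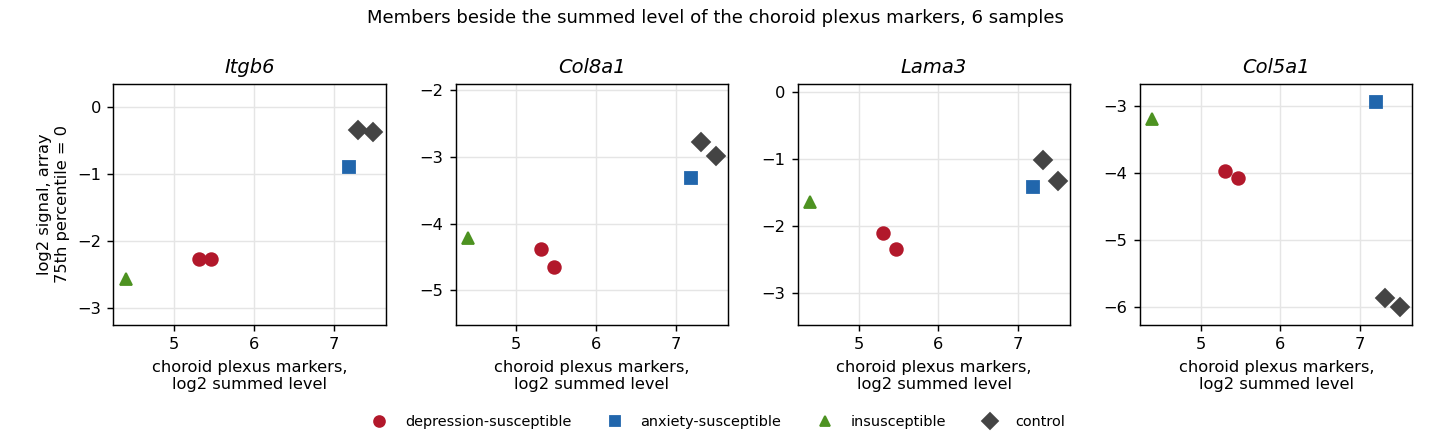
Level of Itgb6, Col8a1, Lama3 and Col5a1 (log2 signal, array 75th percentile at 0, y axis) against the summed level of 13 choroid plexus markers (log2, x axis) in the 6 samples. The sum follows the brightest markers. For Itgb6 the samples with the 3 lowest marker sums, 4.39 to 5.47, are also the 3 lowest samples; for Col5a1 both controls, at 7.31 and 7.5, are the lowest samples.

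Itgb1, the common beta partner of the collagen and laminin receptors, read 2.62 and 2.66 in controls, 2.32 and 2.48 in depression-susceptible rats, 1.95 in the anxiety-susceptible and 2.19 in the insusceptible sample. All stressed samples were below the controls, and the fall of 0.69 (SE 0.11, adjusted p = 0.0247) in anxiety-susceptible rats was called. Its differences in depression-susceptible and insusceptible rats were -0.24 (SE 0.09) and -0.45 (SE 0.11, adjusted p = 0.0529).

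Itgb2, the beta chain of leukocyte and microglial integrins, read -0.30 and -0.40 in controls, -0.34 and -0.33 in depression-susceptible rats, -0.83 in the anxiety-susceptible and -0.89 in the insusceptible sample. It fell by 0.48 (SE 0.10, adjusted p = 0.035) and 0.53 (SE 0.10, adjusted p = 0.0289) in the last 2 groups and differed by 0.02 (SE 0.08) in depression-susceptible rats. Its alpha partner Itgam, which the rule leaves out, fell by 1.91 (SE 0.12, adjusted p = 0.00617) in depression-susceptible rats, by 1.16 in anxiety-susceptible and by 1.04 in insusceptible rats. Another alpha partner outside the rule, Itgal, was not called, with differences of -0.18, -0.02 and -0.34 (adjusted p = 0.466, 0.929 and 0.211). Of 12 microglial markers, 2, 3 and 1 were called lower in the 3 groups and none higher. Of all probes tested, 3.27%, 16.7% and 14.4% were called lower there.

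Itgb4, the beta chain of hemidesmosomes, read -1.18 and -0.98 in controls, -1.09 and -1.002 in depression-susceptible rats, -0.79 in the anxiety-susceptible and -0.47 in the insusceptible sample, and its rise of 0.61 (SE 0.13, adjusted p = 0.0396) in insusceptible rats was called. Itgb5, a vitronectin receptor chain, read from -2.25 to -1.87, with no call. Itgb1bp1, which binds the tail of integrin beta 1, read from 1.59 to 1.83, and Itgb3bp, a centromere protein named for binding integrin beta 3, from 0.36 to 0.65, with no call for either.

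Between stressed groups few differences passed. Depression-susceptible against anxiety-susceptible rats gave 1 call among 32 members, a background of 0.231% of all probes: Itgb6 differed by -1.39 (SE 0.09, adjusted p = 0.047), and that count was 0 when any 1 of the control or depression-susceptible samples was left out. No member was called between depression-susceptible and insusceptible rats, where 0.0847% of all probes were; 12 of 32 members and 30.6% of all probes had an unadjusted p under 0.05, and under normexp 17 members and 37.5% of all probes were called. No member was called between anxiety-susceptible and insusceptible rats either (0.079% of all probes); 9 members and 11.1% of all probes had an unadjusted p under 0.05, and 0 members were called under normexp. In that last comparison Itgb6 differed by 1.68 (SE 0.10, adjusted p = 0.0582), and it passed under quantile normalization (adjusted p = 0.0365), in the value table of the authors (0.0352) and over probes well above background on all arrays (0.0414), and with all 16 arrays as samples, but not under normexp (0.0727), with the 75th percentile over probes (0.0555) or without the filter (0.212). Col3a1 differed by -1.14 (SE 0.12, adjusted p = 0.123) and Col1a2 by -0.93 (SE 0.12, adjusted p = 0.14). The F test over all groups called 18 members, where 24% of all probes were called. Itga10 and Itga5, which passed the filter through groups where they were high, are among the 18 and are a description only. Among the 25 members well above background on all arrays, the F test called 15, where 31.7% of such probes were.

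Genes that make, modify or cut the matrix were taken from lists of known partners, whose counts are to be read against the 10.2%, 30.3% and 30.6% of all probes called in depression-susceptible, anxiety-susceptible and insusceptible rats. In collagen modification, 19 genes were tested: 1 rose and 1 fell in depression-susceptible rats, 4 and 2 in anxiety-susceptible and 3 and 1 in insusceptible rats. P3h3, which helps to modify collagen prolines and lysines, rose by 1.01 (SE 0.12), 1.89 (SE 0.14) and 1.81 (SE 0.14). P4ha1, a chain of the prolyl 4-hydroxylase that stabilises the helix, rose by 0.62 (SE 0.09) and 0.79 (SE 0.09) in anxiety-susceptible and insusceptible rats. Loxl1, a crosslinking enzyme of elastic fibres, fell by 0.58 (SE 0.09) in depression-susceptible rats.

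Of 18 proteases and inhibitors, 1 rose and 2 fell, 1 rose and 4 fell, and 0 rose and 4 fell in the 3 groups in the same order. Mmp2, a gelatinase that cuts type IV collagen, fell by 1.37 (SE 0.10), 1.01 (SE 0.12) and 1.47 (SE 0.12). Of 22 other matrix glycoproteins and proteoglycans, 5 rose and 2 fell, 3 rose and 4 fell, and 9 rose and 1 fell. Postn, a matrix protein that binds fibrils, rose by 0.82 (SE 0.07) in depression-susceptible and 0.99 (SE 0.09) in anxiety-susceptible rats, and Fmod, a proteoglycan on collagen fibrils, fell by 1.77 (SE 0.13) in depression-susceptible and 1.30 (SE 0.16) in insusceptible rats.

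Among 7 basement membrane partners, Nid2, which links laminin to type IV collagen, rose by 0.68 (SE 0.09) in depression-susceptible and 0.61 (SE 0.12) in insusceptible rats and was the only one called in each. In anxiety-susceptible rats Agrn, a heparan sulfate proteoglycan, rose by 0.46 (SE 0.09) and Ntn4, a laminin-like protein, fell by 0.64 (SE 0.15). Of 28 integrin adaptors, 1 rose and 0 fell, 1 rose and 4 fell, and 2 rose and 3 fell; Fermt1, a kindlin that activates integrins, rose by 0.95 (SE 0.11), 1.76 (SE 0.14) and 1.22 (SE 0.14).

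Markers of other cells that carry these chains moved as follows. Their counts are likewise to be read against the 10.2%, 30.3% and 30.6% of all probes called in the 3 groups. Of 12 tested markers of meninges and fibroblasts, 2 rose and 4 fell, 2 rose and 5 fell, and 3 rose and 3 fell, and their summed level was 5.38 and 5.26 in controls and 4.22 to 4.39 in the stressed samples. Of 10 endothelial markers none was called in depression-susceptible or anxiety-susceptible rats and 1 rose in insusceptible rats. Red blood cell markers had a summed level of 0.46 and 0.49 in controls and 4.67 and 4.63 in depression-susceptible rats, where 6 of 8 rose, and -0.02 and 1.37 in the other 2 samples. Of 4 tested ependymal markers 2, 1 and 3 fell in the depression-susceptible, anxiety-susceptible and insusceptible groups, and their summed level was 5.21 and 4.83 in controls, 4.52 and 4.09, 3.95 and 3.78. Of 12 neuronal markers 2 fell in depression-susceptible rats, 5 in anxiety-susceptible rats, and 6 fell and 1 rose in insusceptible rats; their summed level was 7.94 and 7.70 in controls and 7.25 to 7.56 in the stressed samples. The part of these cells in the collagen and integrin values was not tested.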

How the data were processed

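Hippocampal RNA was hybridised to one-colour Agilent arrays, and the authors deposited Feature Extraction output (version 11.0.1.1, per the file headers), whose processed signal is an intensity already background-corrected by that program. The authors' series value table, per its values log2 signals that follow each array (lowest correlation 0.998), was used only as an alternative. Control spots and outlier spots were dropped, spots of a probe averaged, log2 intensity reduced by the array's 75th percentile, and a probe kept if 4 or more of the 16 arrays read it well above background. limma 3.58.1 (R 4.3.3) fitted 6 samples, with 2 residual degrees of freedom. Tested on simulated data for depression-susceptible against control over 17713 probes, it recovered 12%, 82%, 98% and 100% of genes changed 1.5-, 2-, 4- and 8-fold, 50 each, with 11 false calls. The simulated noise was independent between probes and samples and held no slide effect, so these rates need not hold for the real arrays. Few arrays and slides limit the precision.

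Probes were named by RefSeq accession (14274 of 15321 mRNA probes matched). The files' build differs from GRCr8, which is used for promoters alone. Members and gene lists were chosen with earlier results of these data known. The named genes are the called members with the largest changes per comparison, a set of well-known chains, members not well above background, and up to 3 called changes per partner list. Alternatives were other normalizations, filters and blocks, and leaving out arrays or samples. Same-numbered arrays were checked for pairing: over 24 pairs their deviations from the group means correlated from -0.55 to 0.13. Arrays of the same number always lay on different slides, so the check cannot exclude pairing.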

Additional observations from a re-analysis of the deposited data

Results flagged for a closer look

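In groups of 4 arrays, 1 array stood far from the other 3 for 11 of 127 tested combinations of member and group; chance flags about 1 in 20. In insusceptible rats the array of replicate 1 was high for Lamb1 (-4.55, others -6.31 to -6.07), Col13a1 (-4.47, others -5.50 to -5.40), Col2a1 (-4.005, others -4.51 to -4.47) and Col5a3 (0.22, others 0.08 to 0.09). Also in insusceptible rats, replicate 2 was low for Col8a1 (-4.36, others -4.19 to -4.15) and Itgb4 (-0.56, others -0.45 to -0.43), and replicate 3 was low for Itga5 (-6.35, others -5.95 to -5.88). In anxiety-susceptible rats, replicate 3 was high for Col13a1 (-4.53, others -6.31 to -6.16), and replicate 4 was high for Itgb1 (2.02, others 1.92 to 1.93) and Itgb5 (-2.04, others -2.12). In controls, replicate 1 was low for Itgb6 (-0.42, others -0.34 to -0.33).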

How the results depend on the processing

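Counts of called members are given for depression-susceptible, anxiety-susceptible and insusceptible rats against control, then depression-susceptible against insusceptible, anxiety-susceptible against insusceptible, depression-susceptible against anxiety-susceptible, and any group; the values of the report were 12, 16, 16, 0, 0, 1 and 18. With all 16 arrays as samples they were 24, 26, 27, 17, 17, 20 and 30, where 50.8%, 71.4%, 73.1%, 62%, 37.1%, 61.9% and 86.7% of all probes were called. With the replicate block on the 16 arrays, a number not known to pair them, they were 23, 26, 26, 17, 16, 20 and 30 (47.9%, 69.5%, 71.1%, 59.1%, 32.3%, 59.1% and 84.2% of all probes). With slide as a block the first was 23 (55.1%). The block fits and the fit of 16 arrays count arrays of 1 group on 1 slide as separate samples. Quantile normalization gave 1, 1 and 9 for the 3 pairs of stressed groups (5.22%, 0.429% and 10.5% of all probes) and the authors' value table also 1, 1 and 9 (2.25%, 0.271% and 8.35%), over 28 members. Normexp, run on median signals (chosen after seeing the data) and on 14 arrays because 2 had no usable fit, gave 17 for depression-susceptible against insusceptible (37.5%) and 22 against anxiety-susceptible (38.2%); it moved the median of all probes to 0.10 and 0.15 in anxiety-susceptible and insusceptible rats. Without the filter on dim probes the count over 34 members was 10 for anxiety-susceptible rats (9.36%), 5 and 0 for depression-susceptible against insusceptible (16.2%) and anxiety-susceptible (0.0204%), and 11 for any group (8.69%). Requiring all arrays well above background gave 1 and 6 of 25 members for anxiety-susceptible against insusceptible (0.117%) and depression-susceptible against anxiety-susceptible (7.78%). Leaving out 1 of the 4 control or depression-susceptible samples gave 2 to 3, 6 to 10, 5 to 12, 0, 0, 0 and 0 to 4; leaving out 1 array gave 11 to 12, 13 to 18, 15 to 17, 0, 0, 0 to 1 and 15 to 19. Averaging probes of a gene was not run, since each member has 1 probe.

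Under the other normalizations, filters and blocks, the 1 called member that changed sign was Col4a4 in insusceptible rats, to 0.69 under normexp. Of the others, Itgb2 in depression-susceptible rats turned to -0.037 under normexp. In anxiety-susceptible rats normexp turned Col13a1 to 0.51, Col4a4 to 0.79, Itga4 to 0.12 and Lamb1 to 0.68. Quantile normalization and the value table there turned Col14a1 to -0.28 and -0.25, Itgb1bp1 to 0.15 and 0.16 and Itgb5 to -0.10 and -0.052, and the 75th percentile over probes, added after seeing the data, turned Itgb1bp1 to 0.030. In insusceptible rats normexp turned Itga3 to 0.64 and Itga4 to 0.24. Quantile normalization there turned Col13a1 to -0.19, Col14a1 to -0.071, Col9a3 to -0.10, Lamb1 to -0.081 and Lamb2 to 0.13, and the value table Col13a1 to -0.16, Col14a1 to -0.033 and Lamb2 to 0.14. The cause of these changes was not tested.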
